A study of Homo sapiens with 18 samples.

Results

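Cytoskeletal mRNAs were followed in cultured human cells and in the extracellular vesicles (EVs) that the cells release. The 10 genes were taken by name: the actins ACTB and ACTG1, the actin regulators CFL1 (cofilin) and PFN1 (profilin), the alpha-tubulins TUBA1A, TUBA1B and TUBA1C, the beta-tubulins TUBB and TUBB4B, and VIM (vimentin). They are 10 of 57865 genes, and the level of each is the sum of the TPM of its transcripts in GENCODE release 29. TPM, the usual transcript abundance unit, is a length-scaled share of a library, so levels of different genes can be set side by side, while every level is relative to the rest of its library and the sequencing depth is unknown.

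The 18 libraries come from HEK293T, an established line derived from human embryonic kidney. They form 6 groups of 3 libraries, namely EVs and cells of the wild type, of ATG7-/- (clone F2) and of ATG12-/- (clone D9). Each knockout is thus a single clone, and every group, the wild type included, had been kept without serum for 24 h. ATG7 activates the ubiquitin-like proteins ATG12 and LC3, a step in attaching LC3 to membrane lipid. ATG12 is part of the enzyme complex that completes the transfer, and the design asks whether large RNAs in EVs differ without this machinery. The labels call the 3 libraries of a group biological replicates, so p-values measure the spread between those libraries.

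Actin monomers polymerise into filaments that support the cell cortex, protrusions and vesicle movement, and tubulin dimers of an alpha and a beta subunit build microtubules. Profilin loads actin monomers for growth of filaments, cofilin severs and disassembles them, and vimentin forms the intermediate filaments of many cultured and mesenchymal cells. The mRNAs of these proteins are among the abundant mRNAs of most cell lines, several are copied into processed pseudogenes, and the isotypes within a family are closely alike in their coding sequence.

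Across the series, 13255 to 14716 genes reached 1 TPM in an EV library and 18464 to 20509 in a cell library. Replicates correlated at 0.762 to 0.821 in EVs and at 0.838 to 0.880 in cells (Pearson, over genes, log2 values). ATG7 stood at 8.06 to 12.9 TPM in ATG7-/- cells and at 8.14 to 13.1 TPM in wild-type cells, and ATG12 at 5.18 to 9.18 TPM in ATG12-/- cells and at 7.61 to 13.5 TPM in wild-type cells. In EVs ATG7 was at 11.2 to 15.6 TPM in ATG7-/- and 13.3 to 19.4 TPM in the wild type. ATG12 in EVs was at 0 to 0.858 TPM in ATG12-/-, 0.844 to 22.6 TPM in the wild type and 0.326 to 12.2 TPM in ATG7-/-. The deleted part of either gene is not given in the sources used here, so these levels do not check the genotype labels. The epithelial keratin KRT8 averaged 242 TPM in EVs and 97.9 TPM in cells, NEFM, a neurofilament gene known from HEK293 cells, averaged 33.5 and 5.38 TPM, and the blood cell markers CD3E, HBB, PPBP and PF4 were listed at 0 in all 18 libraries. The whole blood list of 10 summed to 0 to 34.5 TPM in EV and 11.5 to 25.7 TPM in cell libraries, and the 9 fibroblast and endothelial markers to 1.27 to 42.9 and 8.81 to 26.6 TPM, with VWF at 0.

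The reads were 50 bases long, so how far related genes differ over such a stretch bears on every value of the families. The coding sequences of ACTB and ACTG1 are identical at 1029 of 1128 positions (91.2%), and their longest identical run is 59 bases. The first 60 coding bases of both are shown because they hold 10 of the differences by which a short read can be placed. They lie at chr7:5529598-5529657 (ACTB) and chr17:81512295-81512354 (ACTG1) of GRCh38, both on the minus strand, in the first coding exon, and the sequences are those of the GENCODE release 29 transcripts. Capitals mark the 10 bases that differ.
ACTB: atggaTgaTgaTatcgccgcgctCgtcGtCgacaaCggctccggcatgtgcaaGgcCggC
ACTG1: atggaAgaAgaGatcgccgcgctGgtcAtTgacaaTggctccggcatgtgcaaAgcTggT

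The alpha-tubulins are closer still. Coding identity is 97.0% between TUBA1B and TUBA1C, with an identical run of 326 bases, 97.2% between TUBA1A and TUBA1B, and 96.1% between TUBA1A and TUBA1C.

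The beta-tubulins TUBB and TUBB4B are 84.3% identical in coding sequence, and no identical run exceeds 35 bases. Their coding bases 1 to 60, which span an intron, are shown because they hold differences by which a short read can be placed, and capitals mark the 8 differing bases.
TUBB: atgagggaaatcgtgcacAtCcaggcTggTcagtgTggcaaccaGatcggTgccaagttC
TUBB4B: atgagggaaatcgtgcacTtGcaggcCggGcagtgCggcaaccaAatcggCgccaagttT

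Over a reference transcript of each gene, the share of 50-base windows that also occur on the same strand in another annotated gene was 62.7% for TUBA1B, 41.1% for TUBA1A, 25.1% for TUBA1C, 18.2% for TUBB, 10.3% for ACTB, 9.89% for TUBB4B, 8.86% for PFN1, 3.58% for ACTG1, 0.383% for CFL1 and 0 for VIM. Most of the windows that TUBB shares lie in the processed pseudogene TUBBP1, whose mean was 0.0515 TPM in EVs and 0.137 TPM in cells, and those of PFN1 lie in PFN1P1, which was listed at 0 in every library. The division of TPM among TUBA1A, TUBA1B and TUBA1C is therefore uncertain, and their sum is given beside the single genes.

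The first comparison sets EVs against cells of the same genotype. All 10 genes had a higher fitted level in EVs than in cells in each genotype, but TUBA1A in the wild type turned to -0.23 without EV replicate 2, and PFN1 turned when its pseudogenes were added, as given below. Summed over the 10 genes, the level was 2415, 2759 and 2811 TPM in wild-type EVs and 678, 694 and 753 TPM in wild-type cells. The sums were 2679.8, 2493 and 2973 TPM in ATG7-/- EVs against 884, 1104 and 1112 TPM in ATG7-/- cells, and 2366, 2452 and 2516 TPM in ATG12-/- EVs against 1073, 1234 and 1334 TPM in ATG12-/- cells. Every EV library thus lay above every cell library in this sum. In bulk samples fewer cells or vesicles of a kind and less of an mRNA in each cannot be told apart.

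In the wild type 7 of the 10 genes passed the test (limma, Benjamini-Hochberg adjusted p under 0.05 over 24647 genes) and all 7 were higher in EVs, against 4.03% of all tested genes called higher and 24.7% called in either direction. In ATG7-/- it was 7 of 10, against 2.71% called higher and 11.4% in either direction, and in ATG12-/- 4 of 10, against 2.27% and 11.2%, all higher in EVs. Without ATG7-/- cell replicate 1 the count in ATG7-/- was 4, and without ATG12-/- cell replicate 1 that in ATG12-/- was 2. Deposited TPM of the 3 EV and 3 cell libraries did not overlap for 9 genes in the wild type, 10 in ATG7-/- and 9 in ATG12-/-, all higher in EVs, where 12.1%, 10.6% and 7.88% of all tested genes did so. The median log2 fold change of the 10 genes was 1.20, 1.07 and 0.80 in the 3 genotypes, and that of all tested genes was -0.75, -0.48 and -0.54, with 29.02%, 32.0% and 29.7% of them above 0.

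Fold changes are of log2(TPM + 1) after each library was scaled by a median of ratios over genes detected throughout. In EVs against cells they came out smaller for the 10 genes than the log2 of the ratio of mean deposited TPM. That ratio is given as well for several genes. The scaling, the added 1 and the averaging of log2 values all enter this difference. With TPM left unscaled the median of all genes in the wild type was -0.48 in place of -0.75, and after quantile normalization it was 0.13. The split of calls over all genes moved with it, from 994 higher and 5092 lower to 1575 and 3348 with unscaled TPM and to 2855 and 1722 after quantile normalization. In ATG7-/- the split was 668 and 2141, 825 and 1570 with unscaled TPM, and 1494 and 949 after quantile normalization, and in ATG12-/- it was 559 and 2193, 660 and 1913, and 1414 and 900. No fold change of the 10 genes in EVs against cells changed its sign under either. Summed TPM of the 13 mitochondrially encoded mRNAs moved the other way, from 14671 to 25781 TPM in cell libraries and from 1563 to 3344 TPM in EV libraries. With mitochondrial and small noncoding RNA left out together, the median of all genes was -0.81 in the wild type, -0.53 in ATG7-/- and -0.60 in ATG12-/-. The part of the mitochondrial mRNAs alone in the relative levels was not tested.

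**Figure D1:**
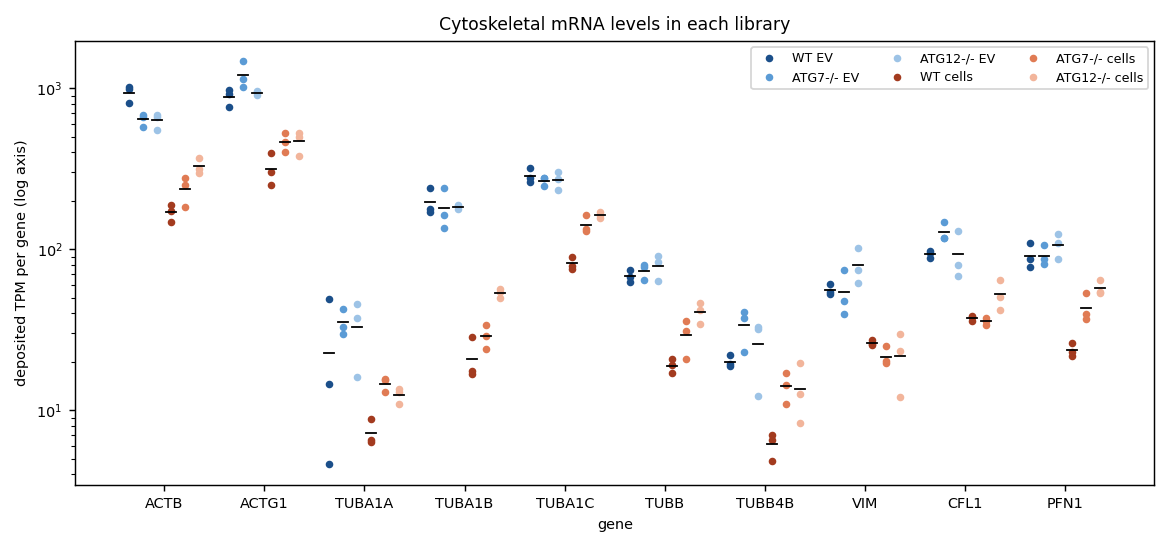
Deposited TPM per gene (log axis) of the 10 genes in each of the 18 libraries; points are libraries, coloured by group, and black lines are group means. ACTB and ACTG1 lie highest, and the 3 EV groups lie above the 3 cell groups for every gene except TUBA1A and TUBB4B, where several EV libraries lie within the range of the cell libraries or below it.

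By the TPM listed for each gene, beta-actin and gamma-actin, the cytoplasmic actins of non-muscle cells, were the most abundant of the 10 mRNAs in both compartments. This order takes the reads of opposite-strand genes as not those of the members, which was not tested. AC011603.2, opposite TUBA1B, averaged 9285 TPM in EVs and 4747 TPM in cells. ACTB (chr7:5527147-5563784, minus strand) ranked 26 among 19838 protein-coding genes in wild-type EVs and 114 in wild-type cells. TPM of ACTB were 812, 1019.9 and 991 in wild-type EVs, 663, 687 and 574 in ATG7-/- EVs and 667, 679.6 and 554 in ATG12-/- EVs. In cells they were 189, 172 and 148 in wild-type cells, 183, 252 and 279 in ATG7-/- cells and 299, 314 and 372 in ATG12-/- cells. Every EV library lay above every cell library. The wild type had the highest ACTB level among EVs and the lowest among cells: in descending order the groups ran wild-type EVs, ATG7-/- EVs, ATG12-/- EVs, ATG12-/- cells, ATG7-/- cells and wild-type cells, and neighbours overlapped only between both knockouts in EVs and between ATG7-/- and wild-type cells.

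EVs held 5.54 times the mean ACTB TPM of cells in the wild type, 2.69 times in ATG7-/- and 1.93 times in ATG12-/-. ACTB rose in EVs by 1.96 ± 0.20 on the log2 scale in the wild type (SE, n = 3 libraries a group; limma adjusted p = 1.13e-05), by 1.22 ± 0.20 in ATG7-/- (adjusted p = 0.00135) and by 0.80 ± 0.20 in ATG12-/- (adjusted p = 0.0186). The call in ATG12-/- was lost without ATG12-/- EV replicate 2 (adjusted p = 0.0519), cell replicate 1 (0.0667) or cell replicate 2 (0.0658), and also in fits without the mean-variance trend (0.0768), with sample weights (0.0779) and with protein-coding transcripts only (0.0504).

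ACTG1 (chr17:81509971-81523847, minus strand) ranked 28 in wild-type EVs and 56 in wild-type cells. TPM of ACTG1 were 763, 918 and 981 in wild-type EVs, 1139, 1014 and 1480.3 in ATG7-/- EVs and 904, 955 and 965 in ATG12-/- EVs. Cell levels were 249, 304 and 395 in wild-type cells, 404, 528 and 463 in ATG7-/- cells and 381, 529 and 499.7 in ATG12-/- cells. EV and cell libraries did not overlap, and here the ATG7-/- EVs were the highest group, separate from the other EV groups. Mean ACTG1 TPM was 2.81, 2.60 and 2.00 times higher in EVs than in cells of the wild type, ATG7-/- and ATG12-/-. The gene rose by 1.00 ± 0.20 (adjusted p = 0.00268), 1.14 ± 0.20 (0.00223) and 0.87 ± 0.20 (0.0129). The ATG12-/- call was lost without cell replicate 1 (adjusted p = 0.0628). The sum of both actins rose by 1.41 ± 0.15 (adjusted p = 2.58e-05), 1.18 ± 0.15 (2.20e-04) and 0.85 ± 0.15 (0.00327).

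**Figure D2:**
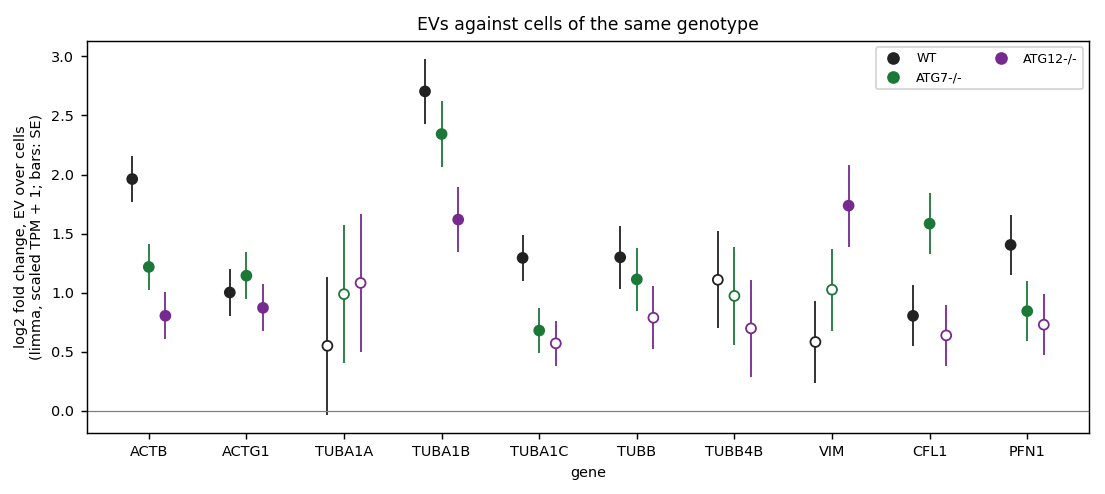
Log2 fold change of EVs over cells (limma on scaled TPM + 1, y axis) for the 10 genes in each genotype; filled points passed an adjusted p of 0.05, open points did not, and bars are standard errors. All points lie above 0, and TUBA1B is highest in the wild type and in ATG7-/-.

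CFL1 (chr11:65823022-65862026, minus strand), which encodes the filament-severing protein cofilin, had a lower level than the actins. TPM of CFL1 were 94.3, 97.5 and 88.8 in wild-type EVs, 118, 118 and 147 in ATG7-/- EVs and 68.6, 79.8 and 130.4 in ATG12-/- EVs. Its cell levels were 38.5, 35.9 and 37.9 in wild-type cells, 37.6, 35.8 and 33.8 in ATG7-/- cells and 42.2, 50.8 and 64.3 in ATG12-/- cells. The EV libraries lay above the cell libraries, by a wider margin in ATG7-/- than in ATG12-/-. CFL1 rose by 0.80 ± 0.26 in the wild type (adjusted p = 0.0347) and by 1.58 ± 0.26 in ATG7-/- (0.00141), and its difference in ATG12-/- was 0.64 ± 0.26 (0.123). The wild-type call was lost when any single library of the pair was left out, with adjusted p from 0.0510 without wild-type EV replicate 3 to 0.0881 without wild-type cell replicate 3; without EV replicates 1 and 2 it was 0.0615 and 0.0674, and without cell replicates 1 and 2 0.0751 and 0.0857.

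Profilin delivers actin monomers to growing filament ends, and its gene PFN1 (chr17:4945652-4949061, minus strand) was near CFL1 in level. TPM of PFN1 were 87.0, 77.6 and 109.8 in wild-type EVs, 87.4, 80.5 and 106 in ATG7-/- EVs and 109, 87.1 and 124 in ATG12-/- EVs. PFN1 stood at 23.2, 26.0 and 21.8 in wild-type cells, 36.7, 39.8 and 53.7 in ATG7-/- cells and 54.6, 53.6 and 64.6 in ATG12-/- cells. Libraries of EVs and cells did not overlap. Mean TPM in EVs was 3.86 times that of cells in the wild type, 2.11 times in ATG7-/- and 1.86 times in ATG12-/-. PFN1 rose by 1.40 ± 0.26 in the wild type (adjusted p = 0.00149) and by 0.84 ± 0.26 in ATG7-/- (0.0450), and differed by 0.73 ± 0.26 in ATG12-/- (0.0796).

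The PFN1 call in ATG7-/- was lost without ATG7-/- EV replicate 1 (adjusted p = 0.0741), 2 (0.0661) or 3 (0.139), and without cell replicate 1 (0.146) or 2 (0.122). Adding the TPM of the processed pseudogenes named after PFN1 turned its direction, as described with the pseudogenes.

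Among the tubulins TUBA1B, a widely expressed alpha-tubulin (chr12:49127782-49131397, minus strand), had the highest ratio of EV to cell level of all 10 genes in the wild type and in ATG7-/-. TPM of TUBA1B were 240.1, 177 and 172 in wild-type EVs, 241, 136 and 163 in ATG7-/- EVs and 188, 185 and 179 in ATG12-/- EVs. The cell libraries held 28.7, 17.4 and 16.7 in wild-type cells, 24.1, 29.1 and 34.0 in ATG7-/- cells and 49.9, 56.6 and 54.4 in ATG12-/- cells. The lowest EV library was above every cell library, and among cells the ATG12-/- libraries stood apart above the others. Mean TPM in EVs was 9.37, 6.20 and 3.43 times that in cells of the wild type, ATG7-/- and ATG12-/-. TUBA1B rose by 2.70 ± 0.28 (adjusted p = 1.34e-05), 2.34 ± 0.28 (8.77e-05) and 1.62 ± 0.28 (0.00214).

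TUBA1C (chr12:49188736-49274603, plus strand), another alpha-tubulin, was higher than TUBA1B in every group mean of TPM summed over all transcripts. Protein-coding transcripts held only 7.96% of the TUBA1C level, against 98.1% for TUBA1B. The most abundant of them, TUBA1C-202, averaged 26.1 TPM in EVs and 3.75 TPM in cells, below TUBA1B-202 at 101 and 22.8 TPM. TPM of TUBA1C were 262, 277 and 318 in wild-type EVs, 247, 277 and 276 in ATG7-/- EVs and 235, 271 and 302 in ATG12-/- EVs. In cells the levels of TUBA1C were 90.1, 79.0 and 75.8 in wild-type cells, 133, 130.4 and 164 in ATG7-/- cells and 162, 157 and 170.4 in ATG12-/- cells. The 3 EV groups overlapped each other, while the wild-type cells lay below the cells of both knockouts. The gene rose by 1.29 ± 0.19 in the wild type (adjusted p = 3.69e-04) and by 0.68 ± 0.19 in ATG7-/- (0.0332), and in ATG12-/- its difference was 0.57 ± 0.19 (0.0687). In ATG7-/- the call was lost without EV replicate 2 (adjusted p = 0.0868) or 3 (0.0882) and without cell replicate 1 (0.0948) or 2 (0.106).

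TUBA1A (chr12:49184796-49189324, minus strand), the alpha-tubulin best known from neurons, was the least abundant of the 3. TPM of TUBA1A were 14.6, 49.0 and 4.61 in wild-type EVs, 42.7, 29.9 and 33.1 in ATG7-/- EVs and 45.6, 16.1 and 37.2 in ATG12-/- EVs. TUBA1A levels of 8.82, 6.39 and 6.51 in wild-type cells, 12.9, 15.5 and 15.3 in ATG7-/- cells and 13.5, 10.9 and 13.0 in ATG12-/- cells were recorded. The wild-type EV libraries spread widely, and the lowest of them lay below all 3 wild-type cell libraries. TUBA1A did not pass in any genotype, with differences of 0.55 ± 0.58 (adjusted p = 0.507), 0.99 ± 0.58 (0.288) and 1.08 ± 0.58 (0.244). The wild-type value rests on EV replicate 2, the library at 49.0 TPM, without which it was -0.23 (0.755). TPM are scaled by transcript length, so even the sum of the 3 alpha-tubulins depends in part on how reads were divided. This sum was 516, 503 and 494 TPM in wild-type EVs and 128, 103 and 99.0 TPM in wild-type cells. It rose by 1.70 ± 0.17 in the wild type (adjusted p = 1.09e-05), 1.15 ± 0.17 in ATG7-/- (6.78e-04) and 0.94 ± 0.17 in ATG12-/- (0.00324).

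TUBB (chr6:30720201-30725426, plus strand) encodes the common beta subunit. TPM of TUBB were 62.3, 67.0 and 74.1 in wild-type EVs, 64.1, 79.3 and 78.0 in ATG7-/- EVs and 63.8, 83.0 and 90.3 in ATG12-/- EVs. Cells of the 3 genotypes had 17.1, 20.8 and 19.0 in wild-type cells, 20.8, 30.9 and 36.1 in ATG7-/- cells and 34.3, 41.9 and 46.5 in ATG12-/- cells. The EV groups overlapped one another and lay above all cell libraries, among which the wild type was lowest. TUBB rose by 1.30 ± 0.27 in the wild type (adjusted p = 0.00323) and 1.11 ± 0.27 in ATG7-/- (0.0154), and in ATG12-/- the difference was 0.79 ± 0.27 (0.0702). Without ATG7-/- cell replicate 1 the ATG7-/- call was lost (adjusted p = 0.0748).

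TUBB4B (chr9:137241213-137243707, plus strand), another broadly expressed beta subunit, was less abundant. TPM of TUBB4B were 19.3, 21.9 and 18.7 in wild-type EVs, 37.7, 23.0 and 40.8 in ATG7-/- EVs and 12.3, 33.1 and 32.0 in ATG12-/- EVs. The corresponding cell values were 7.04, 6.57 and 4.80 in wild-type cells, 10.9, 17.0 and 14.4 in ATG7-/- cells and 12.6, 8.35 and 19.8 in ATG12-/- cells. A single ATG12-/- EV library, at 12.3 TPM, lay within the range of ATG12-/- cells. TUBB4B did not pass in any genotype: the differences were 1.11 ± 0.41 (adjusted p = 0.0608), 0.97 ± 0.41 (0.135) and 0.70 ± 0.41 (0.288). Beta-tubulin summed over both genes rose by 1.28 ± 0.26 in the wild type (adjusted p = 0.00317) and 1.10 ± 0.26 in ATG7-/- (0.0149), with 0.78 ± 0.26 in ATG12-/- (0.0690).

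VIM (chr10:17228259-17237593, plus strand) encodes vimentin. TPM of VIM were 60.9, 54.2 and 52.9 in wild-type EVs, 39.7, 47.8 and 74.5 in ATG7-/- EVs and 74.6, 61.5 and 103 in ATG12-/- EVs. VIM in cells was at 25.3, 25.7 and 27.3 in wild-type cells, 20.1, 24.9 and 19.6 in ATG7-/- cells and 23.4, 12.1 and 29.8 in ATG12-/- cells. All EV libraries lay above all cell libraries, the ATG12-/- EVs lay above the wild-type EVs without overlap, and the ATG12-/- cells overlapped both other cell groups. VIM was the only gene of the 10 whose ratio of mean TPM was lowest in the wild type (2.15, against 2.51 in ATG7-/- and 3.65 in ATG12-/-). VIM rose in ATG12-/- by 1.74 ± 0.35 (adjusted p = 0.00597), while the differences of 0.58 ± 0.35 in the wild type (0.229) and 1.03 ± 0.35 in ATG7-/- (0.0683) did not pass. With unscaled TPM they did (adjusted p = 0.0413 and 0.0352).

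Other calls near the threshold also moved with the fit. Without the mean-variance trend the adjusted p was 0.0555 for CFL1 in the wild type, 0.103 for TUBA1C and 0.0689 for PFN1 in ATG7-/-, and 0.0632 for ACTG1 in ATG12-/-, so that none of these 4 passed. With protein-coding genes only, CFL1 in the wild type (0.0939), TUBA1C (0.0667) and PFN1 (0.0860) in ATG7-/- did not pass either. With unscaled TPM, TUBB4B passed in the wild type (0.0174), and TUBA1C (0.0297), TUBB (0.0433) and PFN1 (0.0443) in ATG12-/-.

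The next comparisons set each knockout against the wild type, first in EVs. The ATG7-/- and the ATG12-/- comparison share the wild-type libraries, so their values are given side by side and not as independent evidence. In EVs 0 of the 10 genes passed in either knockout, where 0.141% (ATG7-/-) and 0.105% (ATG12-/-) of 17076 tested genes did. At an unadjusted p under 0.05 it was 2 genes in ATG7-/- and 1 in ATG12-/-, against 7.41% and 7.94% of all genes. The count was 0 under each alternative setting that was run.

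ACTB had the lowest value in both: the fold change was -0.45 ± 0.20 in ATG7-/- EVs (95% interval -0.89 to -0.01, adjusted p = 0.666) and -0.49 ± 0.20 in ATG12-/- EVs (-0.93 to -0.05, adjusted p = 0.599). All 6 knockout EV libraries lay below the 3 wild-type ones in deposited ACTB TPM. For ACTG1 the values were 0.53 ± 0.20 (0.10 to 0.97, adjusted p = 0.561) and 0.17 ± 0.20 (-0.27 to 0.61), and the actin sum came to 0.12 ± 0.16 and -0.13 ± 0.16. CFL1 gave 0.54 ± 0.32 (-0.18 to 1.26) and 0.01 ± 0.32 (-0.71 to 0.73), and PFN1 0.10 ± 0.31 (-0.60 to 0.79) and 0.30 ± 0.31 (-0.40 to 0.99). Deposited TPM did not overlap for ACTB (lower), ACTG1, TUBB4B and CFL1 (higher) in ATG7-/-, and for ACTB (lower) and VIM (higher) in ATG12-/-. Over all tested genes 6.39% were higher and 7.53% lower without overlap in ATG7-/- EVs, and 4.35% and 6.99% in ATG12-/- EVs.

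The abundant alpha-tubulins had EV levels close to the wild type. For TUBA1B the difference was -0.05 ± 0.29 in ATG7-/- EVs (95% interval -0.70 to 0.60) and 0.00 ± 0.29 in ATG12-/- EVs (-0.65 to 0.64), and for TUBA1C it was 0.00 ± 0.23 (-0.51 to 0.51) and -0.01 ± 0.23 (-0.52 to 0.49). TUBA1A, at 1.22 ± 0.76 and 1.00 ± 0.76, had by far the widest intervals (-0.48 to 2.92 and -0.70 to 2.70). TUBB gave 0.21 ± 0.32 and 0.28 ± 0.32, TUBB4B 0.78 ± 0.50 and 0.31 ± 0.50, and VIM 0.00 ± 0.38 and 0.54 ± 0.38, with adjusted p of 1.00 and 0.768. Beside these values, the summed TPM of 20 very long mRNAs was 1584 to 1615 in wild-type EVs, 740.2 to 1033 in ATG7-/- EVs and 819 to 1356 in ATG12-/- EVs, and its part in the differences was not tested.

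**Figure D3:**
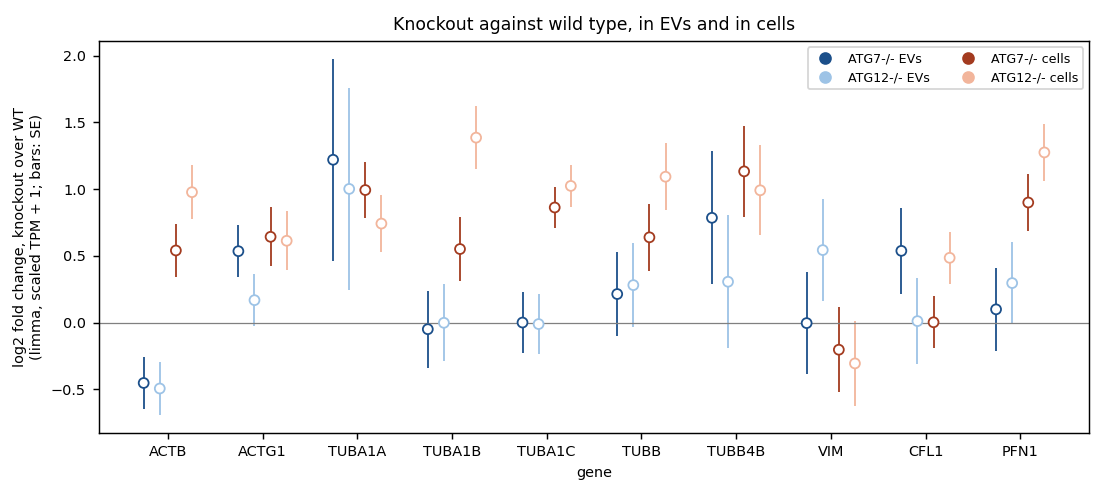
Log2 fold change of knockout over wild type (limma on scaled TPM + 1, y axis) for the 10 genes, in EVs (blue) and in cells (red); bars are standard errors and open points did not pass an adjusted p of 0.05. No point is filled; in cells most points lie above 0, in EVs ACTB lies below it.

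In cells 0 of the 10 genes passed either, against 0.2% (ATG7-/-) and 0.134% (ATG12-/-) of 22471 tested genes, and it was 0 under each alternative setting here too. The unadjusted p was under 0.05 for 8 genes in ATG7-/- and 9 in ATG12-/-, where 14.4% and 15% of all genes were. The fitted value was above 0 for 9 of 10 genes in each knockout, VIM being the exception, and the median of the 10 was 0.64 and 0.98, against -0.07 and -0.07 for all genes. CFL1 in ATG7-/-, at 0.00 ± 0.19, changed its sign in 9 alternatives, among them unscaled TPM (-0.07), and was lowest with its pseudogenes added (-0.16). PFN1 turned to -0.20 and -0.36 in ATG7-/- and ATG12-/- with its pseudogenes added, and VIM in ATG12-/- to 0.06 without ATG12-/- cell replicate 2. Deposited TPM did not overlap for 7 genes in ATG7-/- cells, 6 higher and VIM lower, and for 8 genes in ATG12-/- cells, all higher. Of all tested genes 8.15% were higher and 11.8% lower without overlap in ATG7-/- cells, and 10.7% higher in ATG12-/- cells.

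TUBA1C came nearest to the threshold, at 0.86 ± 0.16 in ATG7-/- cells (95% interval 0.50 to 1.22, adjusted p = 0.0785) and 1.02 ± 0.16 in ATG12-/- cells (0.67 to 1.38, adjusted p = 0.0712). All 3 libraries of each knockout lay above the wild-type cells. TUBA1B was at 0.55 ± 0.24 (adjusted p = 0.343) and 1.39 ± 0.24 (0.0918), and TUBA1A at 0.99 ± 0.21 (0.111) and 0.74 ± 0.21 (0.197). The summed alpha-tubulins gave 0.83 ± 0.16 (0.0864) and 1.10 ± 0.16 (0.0647). The beta-tubulin TUBB stood at 0.64 ± 0.25 and 1.09 ± 0.25, with adjusted p of 0.307 and 0.144, and TUBB4B at 1.13 ± 0.34 and 0.99 ± 0.34, with 0.202 and 0.246.

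ACTB in cells was at 0.54 ± 0.20 in ATG7-/- (adjusted p = 0.286) and 0.98 ± 0.20 in ATG12-/- (0.122), and ACTG1 at 0.64 ± 0.22 (0.258) and 0.61 ± 0.22 (0.262). The monomer-binding PFN1 reached 0.90 ± 0.21 (0.132) and 1.27 ± 0.21 (0.0880), with all knockout libraries above the wild type. CFL1 was at 0.00 ± 0.19 (0.998) and 0.49 ± 0.19 (0.303), and VIM at -0.20 ± 0.32 (0.800) and -0.31 ± 0.32 (0.691).

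Whether the EV-to-cell difference itself differed in a knockout was tested as an interaction on all 18 libraries. No member passed (limma, 0 of 10 in each knockout, against 0.284% and 0.268% of 24647 genes), and at an unadjusted p under 0.05 there were 2 in ATG7-/- and 4 in ATG12-/-, against 8.91% and 10.1%. ACTB had the largest negative values, -0.74 ± 0.28 in ATG7-/- (adjusted p = 0.431) and -1.16 ± 0.28 in ATG12-/- (unadjusted p = 8.81e-04, adjusted p = 0.138). With unscaled TPM the ATG12-/- value was -1.52 (adjusted p = 0.0333) and after quantile normalization -1.67 (0.0268), both past the threshold.

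TUBA1B gave -0.36 ± 0.39 in ATG7-/- (0.846) and -1.08 ± 0.39 in ATG12-/- (0.371), TUBA1C -0.61 ± 0.27 (0.531) and -0.72 ± 0.27 (0.395), and PFN1 -0.56 ± 0.36 and -0.67 ± 0.36. VIM lay on the other side, at 0.44 ± 0.49 and 1.15 ± 0.49 (0.445). CFL1 was positive in ATG7-/-, at 0.78 ± 0.37, and near 0 in ATG12-/-, at -0.17 ± 0.37. The median of all genes was 0.22 and 0.19.

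Ratios within a library between related genes do not depend on the scaling of libraries. ACTG1 over ACTB was 0.940, 0.900 and 0.989 in wild-type EVs, 1.72, 1.48 and 2.58 in ATG7-/- EVs and 1.36, 1.41 and 1.74 in ATG12-/- EVs. Wild-type EVs were the only group in which ACTB exceeded ACTG1 in each library, and their ratio did not overlap that of any other group. In cells the mean ratio was 1.92 ± 0.686, 1.99 ± 0.290 and 1.44 ± 0.219 (SD, n = 3) in the wild type, ATG7-/- and ATG12-/-. With 3 libraries against 3 an exact permutation test cannot go below 0.1, so no test of a ratio was made.

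TUBA1B over TUBA1C was 0.699 ± 0.196, 0.687 ± 0.255 and 0.691 ± 0.104 in EVs of the 3 genotypes and 0.253 ± 0.0566, 0.204 ± 0.0211 and 0.329 ± 0.0285 in cells. The lowest EV ratio, 0.493, lay above the highest cell ratio, 0.361. These are ratios of gene sums, in which protein-coding transcripts held 7.96% of TUBA1C and 98.1% of TUBA1B. TUBB over TUBB4B overlapped between EVs and cells within each genotype, with means between 2.08 and 3.50. PFN1 over CFL1 was 0.634 ± 0.0787 in wild-type cells, 1.23 ± 0.323 in ATG7-/- cells and 1.12 ± 0.154 in ATG12-/- cells, and wild-type cells lay below both without overlap.

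**Figure D4:**
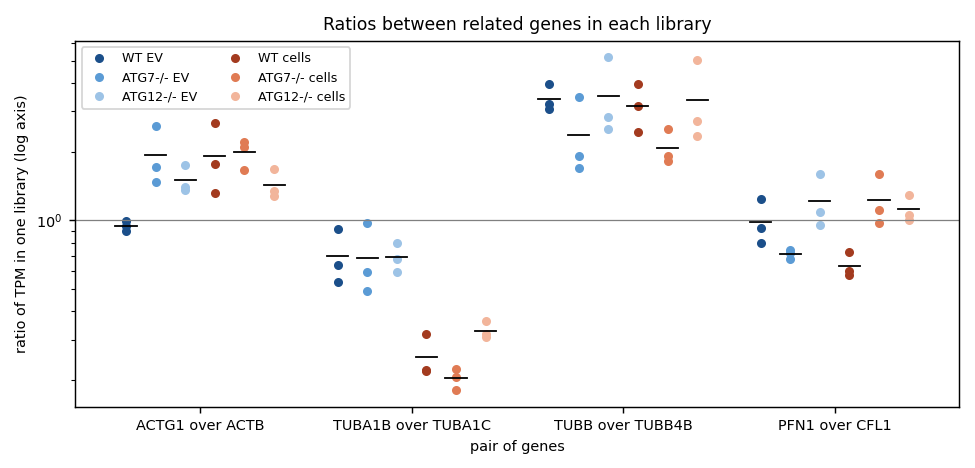
Ratio of deposited TPM between 2 related genes in each library (log axis), by group; points are libraries, black lines are group means and the grey line marks equal levels. TUBA1B over TUBA1C is higher in EVs than in cells, and ACTG1 over ACTB is lowest in wild-type EVs.

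Several of the 10 genes have an annotated gene on the opposite strand, and some of these had far more TPM than the member. The kit marks strand, but the strand setting of the quantification is not given in the sources used here. Reads of a member and of its opposite gene can therefore not be told apart with certainty. ACTB and ACTG1 have no exonic overlap with an opposite gene. Even so, 1.01% of the read-length windows of ACTB and 0.680% of those of ACTG1 occur on the opposite strand in KANTR. KANTR averaged 668 TPM in EVs and 454 TPM in cells, and its part in the actin levels was not tested. CFL1 overlaps MUS81 over 759 exonic bases, at a mean of 8.12 TPM in EVs and 8.02 TPM in cells, and TUBB4B overlaps FAM166A over 124 bases, at 4.47 and 5.79 TPM. Neither of these lies opposite coding bases of the member. SNX32, which overlaps CFL1 over 357 bases, was higher, at 116 TPM in EVs and 52.5 TPM in cells. TUBA1A and TUBA1C overlap each other over 490 bases. AC011603.2, the gene opposite TUBA1B, also holds 25.2% of the TUBA1A windows and 14.1% of the TUBA1C windows on the opposite strand.

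AC011603.2 (chr12:49127782-49147869, plus strand) is the main case: it lies opposite 1309 exonic bases of TUBA1B, which include 68.2% of the TUBA1B coding sequence. Its mean was 9285 TPM in EVs and 4747 TPM in cells. A stretch of 60 bases from this overlap, chr12:49128805-49128864, coding bases 450 to 509 of TUBA1B, is shown on both strands to make plain that, over this overlap, either transcript is the reverse complement of the other.
TUBA1B (minus strand): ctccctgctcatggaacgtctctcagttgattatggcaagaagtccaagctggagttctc
AC011603.2 (plus strand): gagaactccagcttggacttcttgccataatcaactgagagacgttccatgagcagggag

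The ratio of AC011603.2 to TUBA1B was 37.0 to 69.9 in EV libraries and 97.1 to 209 in cell libraries. AC011603.2 rose in EVs by 0.79 (limma adjusted p = 1.25e-04), 0.71 (5.30e-04) and 0.62 (0.00171) in the wild type, ATG7-/- and ATG12-/-, each value smaller than that of TUBA1B. TUBA1C has AC125611.3 opposite 666 exonic bases (1585 TPM in EVs and 739 TPM in cells), which rose in EVs by 1.38, 0.62 and 0.59 (adjusted p = 1.22e-05, 0.0110 and 0.0158). AC125611.3 was also higher in ATG12-/- than in wild-type cells, by 1.07 (adjusted p = 0.0483), where TUBA1C itself had 1.02 ± 0.16 (0.0712). That call on AC125611.3 was lost when any 1 of the 6 libraries was left out: the adjusted p was 0.173, 0.0988 and 0.210 without wild-type cell replicates 1, 2 and 3, and 0.153, 0.190 and 0.149 without those of ATG12-/-. Its call in EVs against cells was lost without ATG7-/- cell replicate 1 (0.0529) and without ATG12-/- cell replicate 3 (0.0525). Opposite TUBB, AL662797.1 covers 538 bases (1983 and 1036 TPM) and rose in EVs by 0.74, 0.63 and 0.62 (adjusted p = 0.00140, 0.00758 and 0.00884). With sample weights these calls on AL662797.1 were lost (0.0756, 0.0862 and 0.135), as were the knockout calls on AC011603.2 (0.0547 and 0.143) and AC125611.3 (0.0853 and 0.162); without the trend the EV-to-cell calls in both knockouts on all 3, and on VIM-AS1, were lost as well. ENO3, the gene of muscle enolase, covers 111 bases opposite PFN1 (824 and 326 TPM) and rose by 0.85, 1.20 and 1.05 (adjusted p = 0.0135, 0.00356 and 0.00935), the wild-type call being lost without EV replicate 3 (0.0548) or cell replicate 3 (0.0593) and without the trend (0.0527).

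VIM-AS1 (chr10:17215196-17229985, minus strand) runs opposite the 5′ end of VIM, over 641 exonic bases that hold 40.2% of the VIM coding sequence. The first 60 coding bases of VIM, chr10:17229423-17229482, are shown on both strands because VIM-AS1 was called lower in ATG7-/- EVs and no such call was made for VIM.
VIM (plus strand): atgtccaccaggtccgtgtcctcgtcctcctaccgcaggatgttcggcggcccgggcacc
VIM-AS1 (minus strand): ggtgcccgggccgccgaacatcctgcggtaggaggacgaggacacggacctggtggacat

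VIM-AS1 stood at 1939.9, 1664 and 1869.9 TPM in wild-type EVs, 911, 759 and 748 TPM in ATG7-/- EVs and 1179, 1247 and 1254 TPM in ATG12-/- EVs, with no overlap among the 3 groups. In ATG7-/- EVs it fell by 1.08 on the log2 scale against wild-type EVs (adjusted p = 0.0386), and in ATG12-/- EVs the value was -0.49 (0.440). VIM itself had 0.00 ± 0.38 and 0.54 ± 0.38 in the same comparisons. A difference between the 2 genes was not tested. The call on VIM-AS1 was lost when any 1 of the 6 libraries was left out, with an adjusted p of 0.185, 0.0835 and 0.136 without wild-type EV replicates 1, 2 and 3 and 0.122, 0.177 and 0.171 without those of ATG7-/-, while the fold change stayed between -1.21 and -1.02 over the alternatives. In EVs against cells VIM-AS1 rose by 1.19, 0.67 and 0.56 in the wild type, ATG7-/- and ATG12-/- (adjusted p = 1.53e-04, 0.0143 and 0.0356), the reverse of the order of VIM over the genotypes. The ATG7-/- call was lost without ATG7-/- EV replicate 1 (0.0524) or cell replicate 1 (0.0689), and the ATG12-/- call without any 1 of its 6 libraries, at an adjusted p of 0.0616, 0.0764 and 0.0612 without EV replicates 1, 2 and 3 and 0.102, 0.05004 and 0.122 without cell replicates 1, 2 and 3.

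A second gene opposite VIM, AL133415.1 (chr10:17233325-17234833, minus strand), overlaps 619 other exonic bases, which include 24.4% of the VIM coding sequence. AL133415.1 averaged 384 TPM in wild-type EVs, 166 TPM in ATG7-/- EVs and 274 TPM in ATG12-/- EVs, and 161, 122 and 173 TPM in the cells. It rose in wild-type EVs against cells by 0.75 (adjusted p = 0.0158), a call lost when libraries were weighted (0.0723) or no trend was fitted (0.0556). In ATG7-/- EVs against wild-type EVs AL133415.1 had -1.12 (0.205), with no overlap of the libraries.

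**Figure D5:**
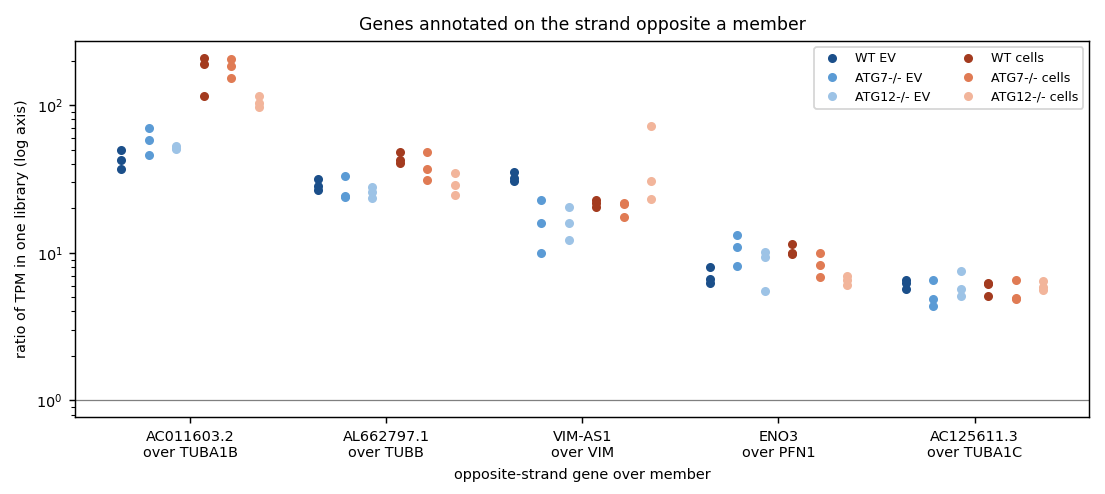
Ratio of deposited TPM of the opposite-strand gene over the member in each library (log axis), for 5 pairs; points are libraries, coloured by group, and the grey line marks equal levels. Every point lies above 1, AC011603.2 over TUBA1B reaches the highest values, and that ratio is lower in EVs than in cells.

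Within a gene the TPM often lay on short annotated transcripts. How reads were divided among overlapping transcripts is not given in the sources used here. ACTG1-202, of 471 bases, held 80.8% of the TPM of ACTG1. For ACTB the largest share (37.6%) lay on ACTB-208, of 715 bases, of which 66.6% is untranslated sequence of the reference transcript; its mean was 257 TPM in EVs and 113 TPM in cells. ACTB-216, of 1009 bases, was at 224 TPM in EVs and 15.1 TPM in cells, and the retained-intron transcript ACTB-210 at 147 and 63.6 TPM, so the ratio of EVs to cells was not alike over the transcripts of ACTB. The transcript of 1921 bases used as the reference of ACTB averaged 0.465 TPM in EVs and was listed at 0 in cells.

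VIM-208, of 634 bases at the 5′ end of VIM, held 66.9% of the VIM level. TUBA1C stood out in that TUBA1C-203, annotated as a retained intron, held 62.9% of its TPM and protein-coding transcripts only 7.96%. TUBA1C-205, a processed transcript of 560 bases, averaged 62.9 TPM in EVs and 48.7 TPM in cells, and 87.5% of it lies opposite exons of TUBA1A. A single protein-coding transcript held 97.9% of TUBB and 98.2% of TUBB4B, and the leading transcript held 75.5% of TUBA1A, 65.9% of PFN1, 56.1% of TUBA1B and 32.0% of CFL1. With protein-coding transcripts alone, a setting chosen after these shares were seen, TUBA1C rose by 3.45 in wild-type EVs against cells (adjusted p = 0.00432) and had 1.16 (0.359) and 1.96 (0.0979) in ATG7-/- and ATG12-/-. ACTG1 no longer passed in this setting, with adjusted p of 0.0874 in the wild type, 0.0579 in ATG7-/- and 0.103 in ATG12-/-.

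Pseudogenes named after the members numbered 62, of which 59 are annotated as processed and 3 are not (ACTBP13, TUBBP5 and CFL1P1), and for each member except PFN1 they summed to at most 26.4 TPM in any library. Its 10 pseudogenes summed to 61.4, 86.3 and 51.5 TPM in wild-type EVs, 51.8, 46.1 and 61.3 in ATG7-/- EVs and 51.8, 90.2 and 38.7 in ATG12-/- EVs. In cells the sums were 277, 208 and 227 TPM in the wild type, 202, 169 and 145 in ATG7-/- and 159.9, 139 and 120.4 in ATG12-/-. They were thus higher in cells than in EVs, opposite to PFN1, and higher in cells than PFN1 in every library. PFN1P2 led, with a mean of 25.9 TPM in EVs and 121 TPM in cells, followed by PFN1P6 (13.0 and 37.4 TPM), and no 50-base window of the PFN1 reference transcript occurs in either.

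With the pseudogenes added to PFN1, EVs fell below cells, at -1.21 in the wild type (adjusted p = 7.88e-04) and -0.80 in ATG7-/- (0.0188), and the value in ATG12-/- was -0.38 (0.234). The pseudogene sum of ACTG1 was 22.2, 18.8 and 20.0 TPM in wild-type cells, led by ACTG1P10. Adding the pseudogenes of CFL1 left 0.51 in the wild type (adjusted p = 0.212).

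Other genes of the cytoskeleton were read in EVs against cells from lists of named genes. Over all 24647 tested genes 994 were called higher and 5092 lower in the wild type. In ATG7-/- it was 668 and 2141, and in ATG12-/- 559 and 2193. The counts of every list below stand beside these, and no difference of a list from them was tested. Of the other actin genes 1 of 7 tested was higher and 2 lower in the wild type: ACTR1A, an actin-related subunit of dynactin, rose by 1.32 (adjusted p = 0.0231), and the smooth-muscle actins ACTA2 and ACTG2 had -3.75 (0.00404) and -4.63 (0.00571), both lower in EVs. With protein-coding transcripts only, ACTA2 was at -0.49 (0.843) and not called. Mean ACTA2 was 9.83 TPM in wild-type EVs and 62.7 TPM in cells. The ACTR1A call was lost without wild-type EV replicate 1 (0.0637) or 2 (0.0776) or cell replicate 1 (0.105). In ATG7-/- the count was 1 higher and 1 lower, and in ATG12-/- 2 and 0. The list medians were -0.43, 0.57 and 0.99 in the wild type, ATG7-/- and ATG12-/-.

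Of 25 genes of actin nucleation, elongation and capping, 5 were higher and 2 lower in wild-type EVs, 1 and 0 in ATG7-/-, and 1 and 1 in ATG12-/-, with medians of 0.84, 0.24 and 0.48. The formin DIAPH1 rose by 1.88 (5.32e-04) and the capping protein subunit CAPZB by 1.39 (0.00249), and the pointed-end capper TMOD3 fell by 1.99 (0.00326) in the wild type. Partners of cofilin and profilin had 2 of 18 higher in the wild type, 3 in ATG7-/- and 2 in ATG12-/-, and 0 lower (medians 0.60, 1.02 and 0.37). Among them the coronin CORO1C rose by 2.24 (8.22e-04) and PDXP, a cofilin phosphatase, by 2.08 (0.0245) in the wild type, the latter not without EV replicate 1 (0.0696) or 2 (0.0556) or cell replicate 1 (0.0750) or 3 (0.0607). Actin crosslinkers and myosins had 5 of 23 higher and 2 lower in the wild type, 0 and 1 in ATG7-/-, and 2 and 0 in ATG12-/- (medians 0.88, 0.20 and -0.17). The focal adhesion protein gene ZYX rose by 2.36 (9.46e-04) and RDX, of the membrane linker radixin, by 2.39 (0.00773), while the myosin light chain gene MYL6 fell by 1.46 (0.00610). With protein-coding transcripts only, TMOD3 (-0.71, adjusted p = 0.487), ZYX (0.17, 0.844), RDX (0.80, 0.641) and MYL6 (-2.12, 0.151) were not called. MYL6 was not called with unscaled TPM (0.0617) or after quantile normalization (0.0530) either.

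Of 14 other tubulin genes, 0 were higher and 3 lower in the wild type, 0 and 3 in ATG7-/-, and 0 and 4 in ATG12-/-, with medians of -0.17, -0.86 and -0.53. Of all 24647 tested genes 5092, 2141 and 2193 were called lower in the 3 genotypes. TUBA8 fell by 2.79 (0.00178) and the delta-tubulin gene TUBD1 by 1.42 (0.0113; 1.08 and not called with protein-coding transcripts only) in the wild type, and TUBA3D (2.24 TPM in wild-type cells, adjusted p = 8.13e-04) was listed at 0 in all 3 wild-type EV libraries. Genes of tubulin folding and microtubule binding had 5 of 26 higher in the wild type, 4 in ATG7-/- and 5 in ATG12-/-, and 0 lower (medians 0.60, 0.63 and 0.32). The stathmin gene STMN3 rose by 2.50 (0.00384), the plus-end binder MAPRE1 by 1.45 (0.0240) and the chaperonin subunit CCT4 by 1.94 (0.0269) in the wild type. MAPRE1 was not called without EV replicate 2 (0.0858) or 3 (0.0680) or cell replicate 1 (0.0883), nor CCT4 without EV replicate 1 (0.0519) or 2 (0.0816) or cell replicate 1 (0.0556), 2 (0.0878) or 3 (0.0514). Other intermediate filament genes had 4 of 12 higher and 2 lower in the wild type, 3 and 1 in ATG7-/-, and 1 and 1 in ATG12-/- (medians 0.39, 0.21 and 0.40), with NEFM, which rose by 2.95 (0.00181), PRPH, of peripherin, which fell by 2.25 (0.00973), and KRT10, at 1.38 TPM in wild-type cells (adjusted p = 0.00728) and listed at 0 in all 3 wild-type EV libraries. After quantile normalization TUBA3D (0.230), TUBD1 (0.0658), PRPH (0.167) and KRT10 (0.700) were not called, and with unscaled TPM TUBD1 was not (0.0823).

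Serum response factor and its cofactors, which control actin genes, had 2 of 6 tested genes higher in the wild type, 1 in ATG7-/- and 0 in ATG12-/-, with 0, 0 and 1 lower (medians -0.16, 0.60 and -0.39). ELK1 rose by 2.02 (0.00243) and SRF by 1.14 (0.0158, but 0.0625 without cell replicate 3) in wild-type EVs, and FHL2 was at -1.07 (0.112; -1.70 and 0.0294 with protein-coding transcripts only). Of 18 housekeeping mRNAs outside the cytoskeleton, 13 were higher in EVs in the wild type (1 lower), 13 in ATG7-/- and 9 in ATG12-/- (0 lower in both), with medians of 1.96, 1.36 and 1.21. GAPDH rose by 2.89 (6.69e-07), RPLP0 by 3.18 (4.65e-06) and EEF2 by 2.32 (2.89e-07) in the wild type. The medians of the 10 cytoskeletal genes, 1.20, 1.07 and 0.80, lay below these in each genotype, and a difference between the 2 lists was not tested. HEK293 lineage markers had 2, 3 and 1 of 9 higher and 0 lower in the wild type, ATG7-/- and ATG12-/-, and the very long mRNAs 1, 1 and 1 of 20 higher and 2, 1 and 3 lower. The mitochondrially encoded mRNAs had 0 of 13 higher and 12, 12 and 13 lower, and MT-ND6 had -5.62 in the wild type.

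Over the 18 libraries the log2 levels of any 2 of the 10 genes correlated at 0.426 (ACTB with TUBA1A) to 0.953 (TUBA1C with PFN1), as a description of points that share the contrast of EVs and cells. After the group means were removed the values ran from -0.44 to 0.55. Among the 6893 protein-coding genes that averaged 5 TPM or more, the profile of ACTB was most like those of CADM1 (r = 0.977), RAB1B (0.969) and CKB (0.959), that of TUBA1B like ANP32B (0.979), CKB (0.975) and RPS4X (0.975), that of TUBB like GLO1 (0.962), HDGF (0.960) and CALM3 (0.953), and that of VIM like SBK1 (0.911), TNFRSF6B (0.877) and ATG10 (0.868). These correlations, over the same 18 libraries, carry the scaling of each library and have no test.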

How the data were processed

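RNA of EVs and cells was made into libraries with a stranded total RNA kit and 22 PCR cycles and read as single 50-base reads, per the labels' protocols. The authors deposited 1 table of TPM per transcript for all 18 libraries. Salmon 0.14 and DESeq2 appear, with no role, per the submitters' processing notes. For the genome build, annotation and strand setting nothing is given in the sources used here, and no read counts were used, so the depth is unknown. Of 203027 transcripts 202941 matched GENCODE release 29, and their TPM were summed per gene. The 86 unmatched held at most 0.0384% of a library.

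Groups come from the labels. Libraries were scaled by a median of ratios over genes with at least 1 TPM in all fitted libraries, genes reaching 1 TPM in 3 or more libraries were kept, and log2(TPM + 1), which understates changes of low genes, was fitted with limma 3.58.1 (R 4.3.3, mean-variance trend). P-values were adjusted by Benjamini-Hochberg over all genes tested, at 0.05. EVs against cells and the interactions used 18 libraries, and knockout against wild type used the 9 EV or the 9 cell libraries. The model was tested on simulated data. The alternatives were other pseudocounts (0.1 and 5), filters, scalings, transcript sets, weights, a replicate block, families or pseudogenes summed, and each library left out.

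Genes named are the 10 members, the opposite-strand gene with most exonic overlap, the pseudogenes carrying a member's symbol (the rule named processed ones, and 3 of other kinds were summed with them), up to 3 genes of each list with the lowest p in wild-type EVs against cells, and the 3 protein-coding genes with the highest correlation for ACTB, TUBA1B, TUBB and VIM. SNX32, AL133415.1, KRT8 and the genes sharing 50-base windows were named after their values were seen. So were the markers CD3E, HBB, PPBP, PF4 and VWF, which were named for their level of 0. The members and lists were chosen with earlier results of these data known.

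Replicate numbers did not pair the libraries. Sequences are from the GENCODE release 29 transcripts (GRCh38), and no protein sequence was used here.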

Additional observations from a re-analysis of the deposited data

How the results depend on the processing

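Over the alternatives, 1971 of the recomputed fold changes of the 10 genes kept their side of the threshold, 42 fell below it, 22 passed it and 2 that had been called reversed. Of the 1971, 1902 kept their sign and 69 that were not called in either fit changed it, 57 of them from a value below 0.2 in size. The 2 called reversals were PFN1 with its pseudogenes summed, at -1.21 in wild-type EVs against cells and -0.80 in ATG7-/-, which the construction of that sum gives, as the pseudogenes had more TPM in cells. Of the fold changes of the opposite-strand genes and the genes picked from the lists, 2273 kept their side of the threshold (2235 with the same sign, 38 uncalled values with another), 136 fell below it, 14 passed it and 4 called ones reversed, all 4 with protein-coding transcripts only and none called there: SNX32 (-0.68 in the wild type and -0.35 in ATG12-/-), VPS13B (1.21) and TUBD1 (1.08) in EVs against cells. The count of genes called in EVs against cells of ATG7-/- (7) was 4 with protein-coding transcripts only, chosen after seeing the data, and 4 to 7 with 1 library left out. In ATG12-/- (4) it was 7 with unscaled TPM and 7 after quantile normalization, 2 without the mean-variance trend, 2 with sample weights, 2 with protein-coding transcripts only, and 2 to 4 with 1 library left out. In the wild type (7) it was 6 with any 1 library left out, 5 with protein-coding transcripts only, 9 with unscaled TPM and 9 after quantile normalization. The ATG12-/- interaction (0) had 1 call with unscaled TPM and 1 after quantile normalization, ACTB in both. The cause was not tested. Knockout against wild type gave 0 calls among the 10 genes under each alternative.

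With the replicate block, the 10 genes had 7, 7 and 4 calls in EVs against cells and 0 in each other comparison, as without it. VIM-AS1 in ATG7-/- EVs (adjusted p = 0.156) and AC125611.3 in ATG12-/- cells (0.151) were no longer called against the wild type, nor VIM-AS1 in ATG12-/- EVs against cells (0.0545), and all-gene calls in ATG7-/- and ATG12-/- against wild-type EVs were 9 and 3 in place of 24 and 18, and in cells 13 and 12 in place of 45 and 30. Same-numbered libraries did not deviate together (correlations of -0.034 to 0.026), so the numbers were not taken as pairs. All-gene calls over the alternatives ran from 2047 to 6228 in wild-type EVs against cells, 896 to 3701 in ATG7-/-, 988 to 3353 in ATG12-/-, 1 to 25 and 1 to 27 in knockout against wild-type EVs, 4 to 60 and 4 to 52 in cells, and 0 to 93 and 13 to 89 for the interactions. The unknown depth and 3 libraries a group limit what could be detected, and values of TUBA1A, TUBA1B and TUBA1C depend on how shared reads were divided.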
